A study of Mus musculus with 73 samples.

Results

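The 34 genes described here encode the machinery that takes up glucose and splits it to pyruvate and lactate, and a set of genes that cells switch on when oxygen is short. They were chosen by symbol from the table of RNA counts, and all 34 were found among its 37310 gene rows and all 34 were among the 16636 genes with enough counts to test. By role they fall into 2 glucose transporters, 10 genes of the steps on hexose phosphates, 7 genes from triose phosphate to pyruvate, 6 genes that set the fate of pyruvate and lactate, and 9 genes of oxygen sensing and its targets. The RNA came from undifferentiated E14Tg2a cells, a line of male mouse embryonic stem (ES) cells (strain 129/Ola, XY). They grew on gelatin with no feeder layer, and their medium held serum, sodium pyruvate and leukemia inhibitory factor. The sources used here do not give the oxygen level of the incubators. The study edited the X-inactivation centre, the stretch of the X chromosome that holds the silencing RNA Xist and its antisense gene Tsix. One set held 4 libraries of the allele labelled 40kb [Tsix-Xist], with 2 libraries each of clone 1 (2G1) and clone 2 (3D5), and 2 wild-type libraries. The other set held 4 libraries of the allele 70kb [Xite-Jpx], with 2 libraries each of clone 1 (18C6) and clone 2 (20E7), and 2 wild-type libraries of its own. The labels name the wild-type cells E14 in the first set and E14.2 in the second, without saying how these differ. They also give each library a B code, which the sources used here do not explain. In the first set clone 1 held B1 and B2, clone 2 B5 and B6, and the wild type B2 and B6. Both clones shared no B code, and only the wild type held both B2 and B6, with 1 library each. Differences between the clones of this set thus cannot be firmly told apart from differences between B codes. In the second set both clones and the wild type each held B13 and B14. Whether these alleles are inversions or deletions is not said in the labels, and nothing says that libraries of 1 clone came from separate cultures, so that the p-values measure the spread between these libraries.

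Glycolysis turns glucose into pyruvate in the cytosol, and lactate dehydrogenase lets it run on by turning pyruvate into lactate. When oxygen is short, prolyl hydroxylases no longer mark the hypoxia-inducible factors (HIF) for destruction, and HIF then raises transcription of most glycolytic genes together with genes for vessel growth, pH control and removal of mitochondria. ES cells are known for a high rate of glycolysis also when oxygen is present.

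Library totals ran from 34514493 to 46605508 counts, and the members with the fewest counts were Car9, Eno2 and Ankrd37, with means of 17.9, 143 and 168 counts per library. Levels are in CPM, counts scaled to a common library total after correction by the trimmed mean of M values (TMM). They are compared only within a gene, since transcript lengths were not used. The 8 ES cell markers were present in every library, with a summed level of 3828 to 4764 CPM in the 40kb libraries, 2630 and 3269 CPM in their wild type, and 2843 to 4088 CPM in the 70kb set. None was called in the 40kb comparison, where 7 of 8 lay above 0 (median log2 fold change 0.48) and 5 had an unadjusted p under 0.05. Xist, the RNA next to the edits, stood at 14.7 to 82.0 CPM in the 40kb libraries and at 0.734 and 0.801 CPM in their wild type (adjusted p = 0.0162, edgeR). In the 70kb libraries it stood at 4.63 to 8.75 CPM against 0.832 and 2.25 CPM (adjusted p = 1). The library of 40kb clone 1 replicate 1 stood apart from all others: it held the highest value of the 12 libraries for 27.6% of all genes and the lowest for 27.4%, and mitochondrially encoded RNA made up 3.98% of its counts against 1.86% to 2.48% elsewhere. Markers of other cell types differed between the 40kb libraries and their wild type. The 11 trophoblast and simple-epithelium markers summed to 45.0 to 135 CPM in the 40kb libraries and to 522 and 636 CPM in the wild type. This sum also varied widely in the other set, with 164 and 499 CPM in its wild type and 148 to 802 CPM in the 70kb libraries. In the 40kb comparison 6 of 10 tested fell, led by the keratins Krt19 (log2 fold change -3.41), Krt8 (-4.42) and Krt18 (-3.99). Of the 13 tested of 15 fibroblast and smooth-muscle markers 8 fell (median log2 fold change -3.44), among them Fbn1, Dcn and Tagln, with a sum, mostly Fn1, of 945 to 1812 CPM against 1296 and 1510 CPM. Of 10 primitive endoderm markers 1 fell (Dab2, -2.00). For these lists a fall means an adjusted p under 0.05 by edgeR, and 5.67% of all genes fell in this sense. Without either wild-type library of the 40kb set no gene was called. In bulk RNA, fewer cells of a type and less RNA per cell cannot be told apart, and the part of such cells in the members' levels was not tested.

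HIF binds DNA at a short core, and its letters were counted near the starts of the members. The letters ACGTG and GCGTG were searched on both strands (read from the other strand they are CACGT and CACGC) in RefSeq promoter windows of assembly GRCm38.p6, from 250 bases before to 50 bases after each start. The palindrome CACGTG, the core of the E-box bound by Myc and other factors, holds ACGTG on both strands and counts as 2. At least 1 such match lay in a window of 29 of 32 members (90.6%) against 12628 of 27025 genes in the table (46.7%), and by window in 37 of 46 (80.4%) against 43.8% of 32851. Slc2a3 and Ndrg1 were not matched. The share of G and C in the windows was not matched between members and other genes, and a match is a run of letters and no measured binding. Gpi1, Tpi1 and Eno2 held no match. The 150 bases before the start are shown for 6 members, in lower case with the matches in capitals. These are the 2 members that passed the test below (Pfkp and Eno3), the X-linked Pgk1, and Ldha, Slc16a3 and Bnip3. They are examples, and their numbers of matches need not be typical of the members. For Ldha the start with most matches is shown.
Pfkp (chr13:6648772-6648921, minus strand): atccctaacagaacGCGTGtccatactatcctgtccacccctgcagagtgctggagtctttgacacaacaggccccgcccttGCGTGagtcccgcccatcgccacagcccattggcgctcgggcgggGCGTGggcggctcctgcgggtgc
Eno3 (chr11:70657026-70657175, plus strand): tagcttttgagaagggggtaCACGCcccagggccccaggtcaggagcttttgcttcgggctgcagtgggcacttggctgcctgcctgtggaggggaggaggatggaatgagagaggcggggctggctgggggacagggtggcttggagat
Pgk1 (chrX:106186950-106187099, plus strand): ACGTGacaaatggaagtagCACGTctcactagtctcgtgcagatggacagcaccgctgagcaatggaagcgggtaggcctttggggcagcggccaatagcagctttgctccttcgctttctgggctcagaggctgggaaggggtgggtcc
Ldha (chr7:46845654-46845803, plus strand): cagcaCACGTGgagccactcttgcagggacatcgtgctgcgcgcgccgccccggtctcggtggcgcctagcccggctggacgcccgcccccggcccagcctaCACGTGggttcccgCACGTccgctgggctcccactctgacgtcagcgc
Slc16a3 (chr11:120948917-120949066, plus strand): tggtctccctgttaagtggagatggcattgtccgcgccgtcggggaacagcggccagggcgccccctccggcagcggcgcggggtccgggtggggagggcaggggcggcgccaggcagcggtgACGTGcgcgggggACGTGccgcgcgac
Bnip3 (chr7:138909507-138909656, minus strand): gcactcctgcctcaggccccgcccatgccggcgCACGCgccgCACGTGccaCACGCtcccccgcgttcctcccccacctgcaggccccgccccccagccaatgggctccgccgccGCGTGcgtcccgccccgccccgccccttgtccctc
In these stretches Ldha and Bnip3 hold 5 matches each, Pfkp 3, Pgk1 and Slc16a3 2 each, and Eno3 a single one.

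Of the 34 members, 2 changed in the 40kb libraries and none passed the test in the 70kb libraries. Pfkp, a phosphofructokinase, rose and Eno3, the enolase best known from muscle, fell, each by less than 2-fold. Every other member stayed between a log2 fold change of -0.52 (Egln1) and 0.70 (Ndrg1) in the 40kb comparison, with adjusted p from 0.211 upwards (edgeR's quasi-likelihood test, Benjamini-Hochberg over all genes). Of all 16636 genes 6.43% were called in that comparison, 0.763% as higher and 5.67% as lower, so 2 of 34 is near the background. Without either wild-type library of that set no gene at all was called. Without adjustment 3 members had a p under 0.05 (Pfkp, Eno3 and the glucose transporter Slc2a3), where 23.5% of all genes did. For 4 members every allele library was outside the range of the wild-type pair (Pfkp, Aldoa and Pdk1 above, Eno3 below), where 36.2% of all genes separated in this way. The members' median log2 fold change was 0.11 and that of all tested genes 0.06, with 22 members above 0 and 12 below, where 56.2% of all genes lay above 0. This median moved with single libraries: it was -0.020 without wild-type replicate 1, 0.25 without wild-type replicate 2, 0.018 without 40kb clone 2 replicate 2 and 0.17 without 40kb clone 1 replicate 2. It was -0.017 in clone 1 alone and 0.29 in clone 2 alone.

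In the 70kb comparison 0 of 34 members were called by edgeR's quasi-likelihood test and 0 had an unadjusted p under 0.05, and DESeq2 called 0 as well. Over all genes 0% were called and 0.601% had an unadjusted p under 0.05. There 29 members lay below 0 and 5 above, where 51.4% of all genes lay above 0, with a median log2 fold change of -0.09 beside 0.0046 for all genes and a median standard error of 0.22 per member. The median was -0.050 without 70kb clone 2 replicate 2, and it ran from -0.19 to -0.026 over 23 alternatives. All 10 members of the hexose phosphate steps and all 6 of pyruvate and lactate fate were below 0. The 4 allele libraries lay below both wild-type libraries for 3 members, Pfkp, Gpi1 and Ldhb, and above them for none, where 5.48% of all genes separated in either direction. The plot of fold changes shows both comparisons.

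**Figure D1:**
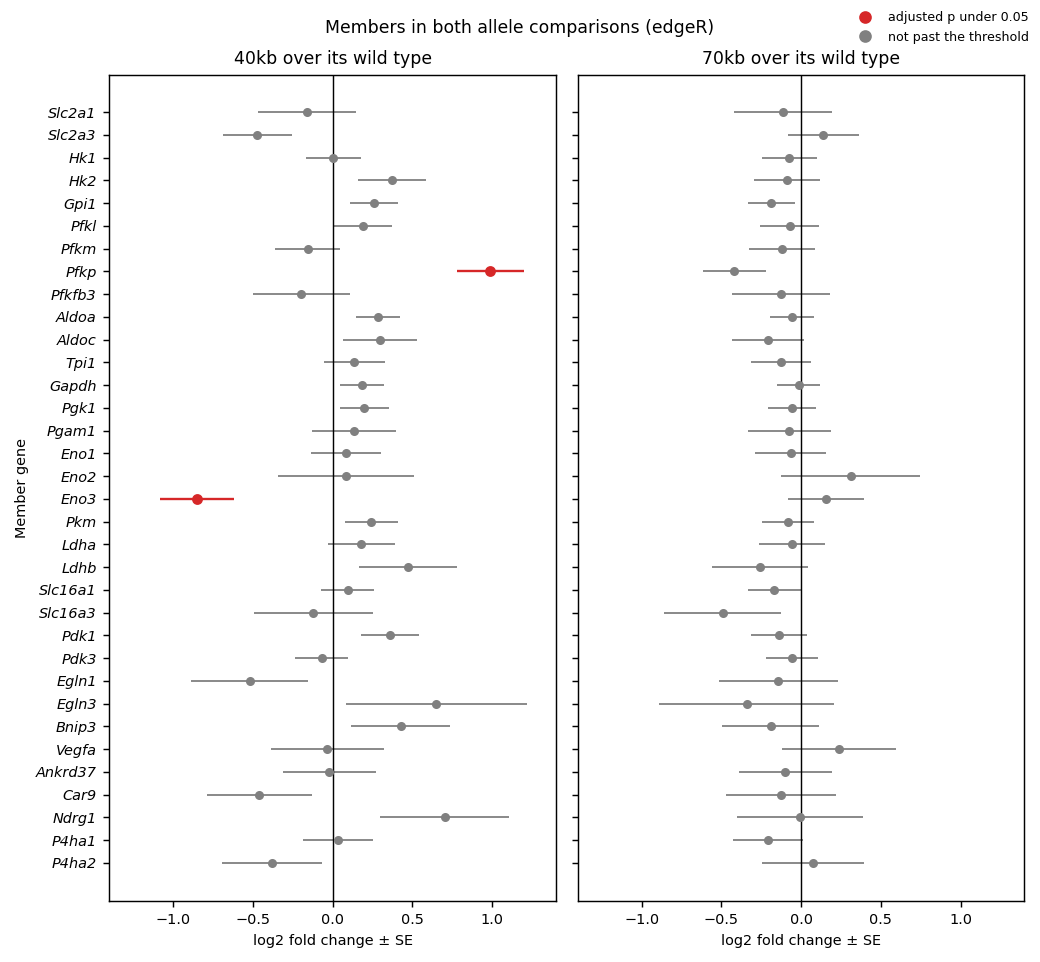
Log2 fold change of each of the 34 members (point) with its standard error (bar) in the 40kb libraries (left) and the 70kb libraries (right), each over its own 2 wild-type libraries, from edgeR. Pfkp at 0.99 and Eno3 at -0.85 on the left are the members with an adjusted p under 0.05, and on the right 29 of 34 points lie below 0.

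Glucose enters ES cells through the facilitative transporters Slc2a1 (GLUT1) and Slc2a3 (GLUT3), and neither passed the test in either comparison. Slc2a3 was at 1964 and 2192 CPM in the wild type of the 40kb set, at 1383 and 1294 CPM in 40kb clone 1, and at 1245 and 2066 CPM in 40kb clone 2. The wild type of the 70kb set had 1394 and 1452 CPM, its clone 1 had 1346 and 1411 CPM, and its clone 2 had 1407 and 2099 CPM. Both wild-type libraries of that first set and 1 library of each clone 2 were thus high, and the other 8 libraries lay between 1245 and 1452 CPM. The log2 fold change in the 40kb libraries was -0.47 (SE 0.22, adjusted p = 0.211, edgeR), and with the 70kb set's wild type as control it was 0.07. In the 70kb libraries it was 0.14 (SE 0.22, adjusted p = 1). Slc2a1 ran from 335 CPM (40kb clone 1 replicate 1) to 794 CPM (40kb clone 2 replicate 2), with both clone 1 libraries of the 40kb allele under both wild-type libraries and both clone 2 libraries within or above their range. Its log2 fold change was -0.16 (SE 0.31) over both clones, and clone 1 alone gave it an adjusted p under 0.05.

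The 10 genes of the hexose phosphate steps carry glucose to triose phosphates: hexokinases (Hk1, Hk2), glucose phosphate isomerase (Gpi1), the 3 phosphofructokinase subunits (liver-type Pfkl, muscle-type Pfkm and platelet-type Pfkp), the regulator Pfkfb3, aldolases (Aldoa, Aldoc) and triose phosphate isomerase (Tpi1). Pfkp was at 273 and 240 CPM in the wild type of the 40kb set, at 642 and 529 CPM in 40kb clone 1, and at 325 and 536 CPM in 40kb clone 2. All 4 allele libraries lay above both wild-type libraries, the lowest being clone 2 replicate 1. The difference was 1.98-fold (log2 0.99, SE 0.21, adjusted p = 0.0238, edgeR). Pfkp in the other set was at 272 and 246 CPM in the wild type, at 196 and 208 CPM in 70kb clone 1, and at 185 and 187 CPM in 70kb clone 2. Here the 4 allele libraries lay below both wild-type libraries, with a log2 fold change of -0.42 (standard error 0.20, adjusted p = 1, unadjusted p = 0.0562, edgeR). The 4 wild-type libraries of both sets stood between 240 and 273 CPM. The call in the 40kb libraries did not survive the removal of wild-type replicate 1 (adjusted p = 0.100), wild-type replicate 2 (0.251) or 40kb clone 1 replicate 2 (0.0525), nor did it hold within clone 2 alone (0.102), with the counts of each clone summed (0.0559) and with the 70kb set's wild type as control (0.162), while the log2 fold change stayed between 0.74 and 1.19 over 23 alternatives (adjusted p from 0.000716 to 0.251). In the 40kb comparison Pfkp rose where many of the markers above fell, and the part of such cells in its rise was not tested. In the 70kb set the wild type held Pfkp at 272 and 246 CPM beside trophoblast and simple-epithelium sums of 164 and 499 CPM. Clone 1 held it at 196 and 208 CPM beside 148 and 265 CPM. Clone 2 held it at 185 and 187 CPM beside 364 and 802 CPM. In the gene tables of GRCm38.p6 the Pfkp locus overlaps Pitrm1 and Gm35730. The sources used here do not say whether strand was used in counting.

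The other phosphofructokinase subunits did not pass the test. Pfkl ran from 337 to 623 CPM and had a log2 fold change of 0.19 (SE 0.19) in the 40kb libraries. Pfkm ran from 29.9 to 58.9 CPM, with a log2 fold change of -0.16 (SE 0.21). Whether the subunits differed from each other in their response was not tested. Aldoa, the main aldolase of proliferating cells, was at 1349 and 1463 CPM in the wild type of the 40kb set, at 1487 and 1709 CPM in 40kb clone 1 and at 1745 and 1912 CPM in 40kb clone 2. Its 4 allele libraries lay above both wild-type libraries, and the difference did not pass the test (log2 fold change 0.29, SE 0.14, adjusted p = 0.231, edgeR). Gpi1 was at 643 and 594 CPM in the wild type of the 70kb set, at 579 and 570 CPM in clone 1 and at 538 and 484 CPM in clone 2. All 4 of these allele libraries were lower than the wild type (log2 fold change -0.19, SE 0.15, adjusted p = 1), while in the 40kb libraries the value was 0.26 (SE 0.15, adjusted p = 0.318). Hk2 (289 to 540 CPM), Hk1 (22.9 to 43.3 CPM), Aldoc (14.7 to 33.8 CPM), Tpi1 (382 to 746 CPM) and Pfkfb3 (22.2 to 56.1 CPM) overlapped with their wild type in both comparisons. For 8 of these 10 genes, all but Hk1 and Pfkp, the highest of the 12 values was in 40kb clone 2 replicate 2.

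The 7 genes from triose phosphate to pyruvate are glyceraldehyde phosphate dehydrogenase (Gapdh), phosphoglycerate kinase (Pgk1) and mutase (Pgam1), the enolases Eno1, Eno2 and Eno3, and pyruvate kinase (Pkm). Eno3 was at 22.4 and 20.6 CPM in the wild type of the 40kb set, at 9.73 and 9.77 CPM in 40kb clone 1, and at 13.6 and 14.6 CPM in 40kb clone 2. All 4 allele libraries lay below both wild-type libraries, and both clone 1 libraries below both clone 2 libraries. The difference was 1.80-fold (log2 -0.85, SE 0.23, adjusted p = 0.0480, edgeR). Among the 70kb libraries Eno3 was at 13.6 and 19.3 CPM in clone 1 and at 17.1 and 21.6 CPM in clone 2, overlapping with 12.9 and 19.2 CPM in their wild type (log2 fold change 0.15, SE 0.24, adjusted p = 1, edgeR). The wild type of the 70kb set thus reached down to the 40kb clone 2 level, and against it the 40kb log2 fold change was -0.43 (adjusted p = 0.459). Eno3 lost its call under 12 of 23 alternatives, among them leaving out any library of the 40kb set but clone 2 replicate 2 (adjusted p from 0.0692 to 0.268), or 70kb clone 1 replicate 2 (0.0623) or 70kb clone 2 replicate 1 (0.0721), with adjusted p from 0.0130 to 0.459 over all 23 and the sign kept in each. Its locus overlaps Pfn1 in the same gene tables. Eno3 fell in the 40kb comparison, where many of the markers above fell as well, and their part in its fall was not tested. In the 70kb set Eno3 stood at 12.9 and 19.2 CPM in the wild type, beside trophoblast and simple-epithelium sums of 164 and 499 CPM. Clone 1 had 13.6 and 19.3 CPM beside 148 and 265 CPM. Clone 2 had 17.1 and 21.6 CPM beside 364 and 802 CPM. Eno1, the ubiquitous enolase, ran from 1459 to 2543 CPM, and in the 40kb libraries it had a log2 fold change of 0.08 (SE 0.22). Eno2, the neuronal enolase, stood at 2.82 to 4.18 CPM in 5 libraries of the 40kb set and at 7.66 CPM in 40kb clone 2 replicate 2. In the 70kb set Eno2 stood at 2.18 to 3.00 CPM in 5 libraries and at 5.5 CPM in 70kb clone 2 replicate 2, with a log2 fold change of 0.31 (standard error 0.44, adjusted p = 1) that was -0.06 without that library.

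Pgk1 lies on the X chromosome, the chromosome that was edited. It was at 710 and 904 CPM in the wild type of the 40kb set, at 1094 and 823 CPM in 40kb clone 1, and at 827 and 959 CPM in 40kb clone 2. The 70kb libraries had 695 and 727 CPM (clone 1) and 746 and 597 CPM (clone 2), beside 712 and 726 CPM in their wild type. The groups overlapped in both sets. The library with the highest Xist level, 40kb clone 1 replicate 1, also held the highest Pgk1 level of the 12. That library held the highest value for 27.6% of all genes. The log2 fold changes were 0.20 (SE 0.15, adjusted p = 0.456) in the 40kb libraries and -0.06 (SE 0.15, adjusted p = 1) in the 70kb libraries (edgeR). Pdk3, the other X-linked member, is described with the pyruvate genes. Gapdh, Pkm and Pgam1 had log2 fold changes of 0.18, 0.24 and 0.13 in the 40kb libraries and of -0.01, -0.08 and -0.07 in the 70kb libraries, with adjusted p from 0.400 upwards. Gapdh kept the narrowest range of all members, from 3160 to 4364 CPM, a ratio of 1.38 between the highest and the lowest library. Gapdh, Pgk1, Eno1, Ldha, Tpi1, Pkm and Aldoa have processed copies elsewhere in the mouse genome, and the sources used here do not say how reads that fit several places were counted, so the counts of these genes are uncertain to that extent.

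The 6 genes of pyruvate and lactate fate are the lactate dehydrogenase subunits Ldha and Ldhb, the monocarboxylate carriers Slc16a1 (MCT1) and Slc16a3 (MCT4), and the kinases Pdk1 and Pdk3, which switch off pyruvate dehydrogenase. None passed the test in either comparison. Pdk1 was at 301 and 326 CPM in the wild type of the 40kb set, at 421 and 341 CPM in 40kb clone 1, and at 400 and 447 CPM in 40kb clone 2. All 4 allele libraries lay above both wild-type libraries (log2 fold change 0.36, SE 0.18, adjusted p = 0.246, edgeR). Ldhb was at 261 and 179 CPM in the wild type of the 40kb set, at 452 and 365 CPM in 40kb clone 1, and at 167 and 234 CPM in 40kb clone 2. Only the clone 1 libraries were above the wild type, and over both clones the log2 fold change was 0.47 (SE 0.31, adjusted p = 0.375). Ldhb had an adjusted p under 0.05 in clone 1 alone. The 70kb libraries had Ldhb at 176 and 203 CPM (clone 1) and 169 and 180 CPM (clone 2) beside 228 and 207 CPM, all 4 below the wild type (log2 fold change -0.26, SE 0.30, adjusted p = 1).

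Ldha was at 1148 and 1678 CPM in the wild type of the 40kb set, at 1456 and 1323 CPM in 40kb clone 1, and at 1834 and 1792 CPM in 40kb clone 2. Clone 1 lay between both wild-type libraries and clone 2 above them, and the log2 fold change was 0.18 (SE 0.21, adjusted p = 0.639, edgeR). By B code, B2 held 1148 CPM in the wild type and 1323 CPM in clone 1. B6 held 1678 CPM in the wild type and 1792 CPM in clone 2. With 1 library of each kind, clone and B code cannot be told apart here. In the 70kb set Ldha was at 1331 to 1575 CPM in 5 libraries and at 978 CPM in 70kb clone 2 replicate 2. Slc16a3, the carrier that exports lactate and a known HIF target, was at 118 and 171 CPM in the wild type of the 70kb set, at 71.2 and 144 CPM in clone 1, and at 118 and 78.7 CPM in clone 2. It had the lowest log2 fold change of the members in the 70kb comparison, -0.49 (SE 0.37, adjusted p = 1, edgeR), and the groups overlapped. Slc16a1 ran from 126 to 182 CPM and showed log2 fold changes of 0.09 and -0.17. Pdk3, on the X chromosome, was at 26.9 and 36 CPM in the wild type of the 40kb set, at 28.5 and 24.0 CPM in 40kb clone 1, and at 35.5 and 32.0 CPM in 40kb clone 2. In the 70kb set all 6 libraries lay between 27.3 and 30.0 CPM. The log2 fold changes of Pdk3 were -0.07 (SE 0.16, adjusted p = 0.828) and -0.06 (SE 0.16, adjusted p = 1) in the 40kb and the 70kb libraries (edgeR).

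The 9 genes of oxygen sensing and response comprise the HIF prolyl hydroxylases Egln1 and Egln3, which are themselves induced by HIF, the mitophagy receptor Bnip3, the vessel growth factor Vegfa, the ankyrin repeat gene Ankrd37, carbonic anhydrase Car9, the stress-response gene Ndrg1, and the collagen prolyl hydroxylases P4ha1 and P4ha2. None of them passed the test in either comparison, and in no case did the allele libraries separate from their wild type. In the 40kb comparison 4 were above 0 and 5 below (median log2 fold change -0.02). Egln3 was at 28.9 and 51.6 CPM in the wild type of the 40kb set, at 27.2 and 39.9 CPM in 40kb clone 1, and at 68.7 and 117 CPM in 40kb clone 2. The 70kb set had 32.8 and 41.8 CPM in the wild type, 26.0 and 56.1 CPM in clone 1, with 20.1 and 15.7 CPM in clone 2. Clone 2 of the 40kb allele thus held the 2 highest and clone 2 of the 70kb allele the 2 lowest values of the 12. In the 40kb set B2 held 28.9 CPM in the wild type and 39.9 CPM in clone 1. B6 held 51.6 CPM in the wild type and 117 CPM in clone 2. With 1 library of each kind, clone and B code cannot be told apart. The log2 fold changes were 0.65 (SE 0.57, adjusted p = 0.517) and -0.34 (SE 0.55, adjusted p = 1), and clone 1 alone gave -0.26 and 0.14, the opposite signs (edgeR).

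Ndrg1 was at 18.9 and 34.9 CPM in the wild type of the 40kb set, at 28.9 and 28.6 CPM in 40kb clone 1, and at 43.4 and 74.0 CPM in 40kb clone 2. Both clone 2 libraries were above the wild type and clone 1 lay within it (log2 fold change 0.70, SE 0.41, adjusted p = 0.315, edgeR). By B code, B2 held 18.9 CPM in the wild type and 28.6 CPM in clone 1. B6 held 34.9 CPM in the wild type and 74.0 CPM in clone 2. With 1 library of each kind, clone and B code cannot be told apart in this pattern either. The 6 values of Ndrg1 in the 70kb set were between 18.3 and 35.2 CPM. Egln1, the main oxygen sensor among the hydroxylases, was at 28.9 and 47.8 CPM in the wild type of the 40kb set, at 17.3 and 19.9 CPM in 40kb clone 1, and at 26.7 and 43.2 CPM in 40kb clone 2. The clone 1 libraries were low and the clone 2 libraries reached into the wild-type range (log2 fold change -0.52, SE 0.37, adjusted p = 0.414). Bnip3 was at 121 and 192 CPM in the wild type of the 40kb set, at 232 and 155 CPM in 40kb clone 1, and at 183 and 272 CPM in 40kb clone 2. Its levels in 70kb clone 1 were 116 and 187 CPM and in 70kb clone 2 they were 122 and 79.1 CPM, with 132 and 156 CPM in their wild type. Its groups overlapped in both sets. Vegfa was at 27.9 and 24.1 CPM in the wild type of the 70kb set, at 21.4 and 21.9 CPM in clone 1, and at 25.7 and 53.5 CPM in clone 2. A single library carried the Vegfa difference of 0.24 (SE 0.36, adjusted p = 1), which was -0.18 without 70kb clone 2 replicate 2. P4ha1 (32.5 to 71.2 CPM), P4ha2 (6.45 to 18.3 CPM), Ankrd37 (2.63 to 5.87 CPM) and Car9 (0.324 to 0.785 CPM, a mean of 17.9 counts) gave log2 fold changes between -0.46 and 0.08 in both comparisons.

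**Figure D2:**
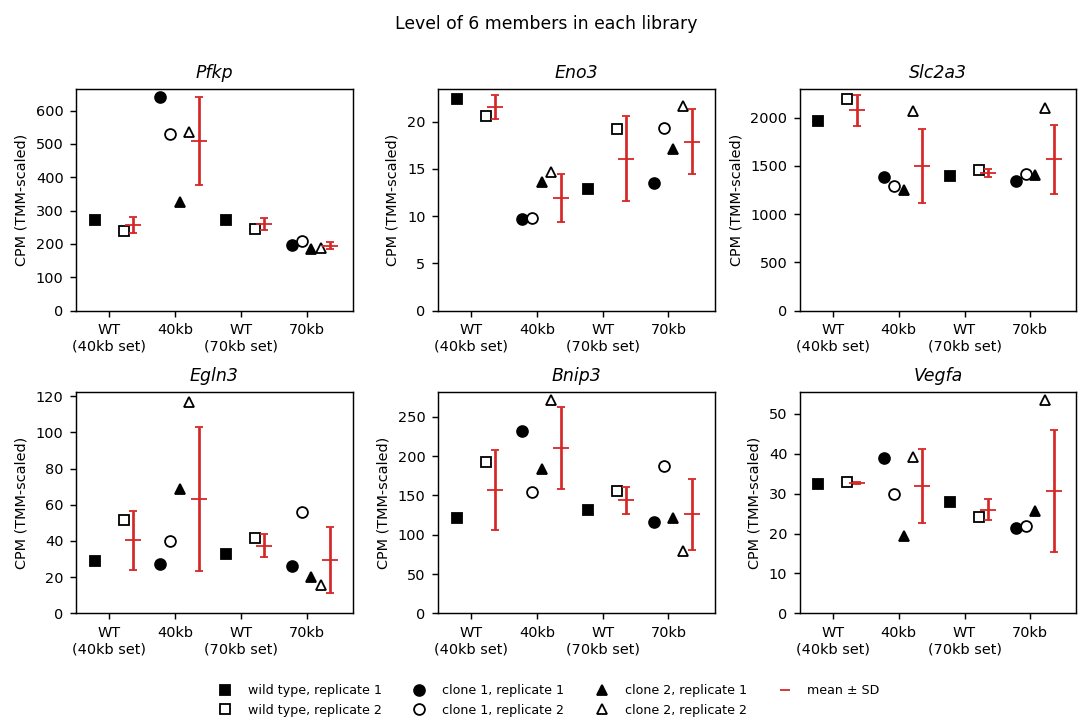
CPM of Pfkp, Eno3, Slc2a3, Egln3, Bnip3 and Vegfa (vertical axes from 0) in the 12 libraries by group, with clones as marker shapes, replicate 1 filled, replicate 2 open, and mean ± SD in red (n = 2 for wild type, 4 for alleles). The 4 40kb points of Pfkp lie above and those of Eno3 below their wild type, while the other 4 genes overlap between groups and spread most within the alleles.

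Some members varied widely between libraries of the same group. Over the 33 members that averaged 50 counts or more the median SD within groups was 0.28 on the log2 scale, against 0.24 over 12673 genes with as many counts. Egln3 varied most, with an SD within groups of 0.78 (percentile 96.9 of those genes) and a ratio of 7.44 between the highest and the lowest library. Ndrg1 (percentile 90.6), Slc16a3 (90.0), Eno2 (89.8), Egln1 (89.1) and Vegfa (87.1) followed. At the other end stood Gapdh (14), Aldoa (15.7) and Gpi1 (24.9), whose libraries of 1 group were closer than those of most genes.

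The library of 40kb clone 2 replicate 2 held the highest of the 12 values for 18 of the 34 members, and for 7.87% of all genes. There 33 members, all but Eno3, lay above their geometric mean over the 12 libraries, and the median deviation over all 34 was 0.42 on the log2 scale. Egln3 stood 1.63, Ndrg1 1.35 and Eno2 1.15 above that mean, and the total of the 34 members made up 2.44% of its counts. At the other end, 70kb clone 2 replicate 2 held the lowest value for 16 members, and for 12% of all genes, with 28 members below their mean and a median deviation of -0.35 over all 34. The 6 that were not low in that library were Slc2a3, Pfkfb3, Eno2, Eno3, Vegfa and P4ha2, and Vegfa had its highest value there. In the same library the trophoblast and simple-epithelium markers summed to 802 CPM, the highest of the 12, and the ES cell markers to 2843 CPM. In 40kb clone 2 replicate 2 these sums were 107 and 4044 CPM. What sets both libraries apart was not tested, and how many of all genes lay above or below their mean there was not counted. The heat map and the bar chart of extremes show both libraries.

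**Figure D3:**
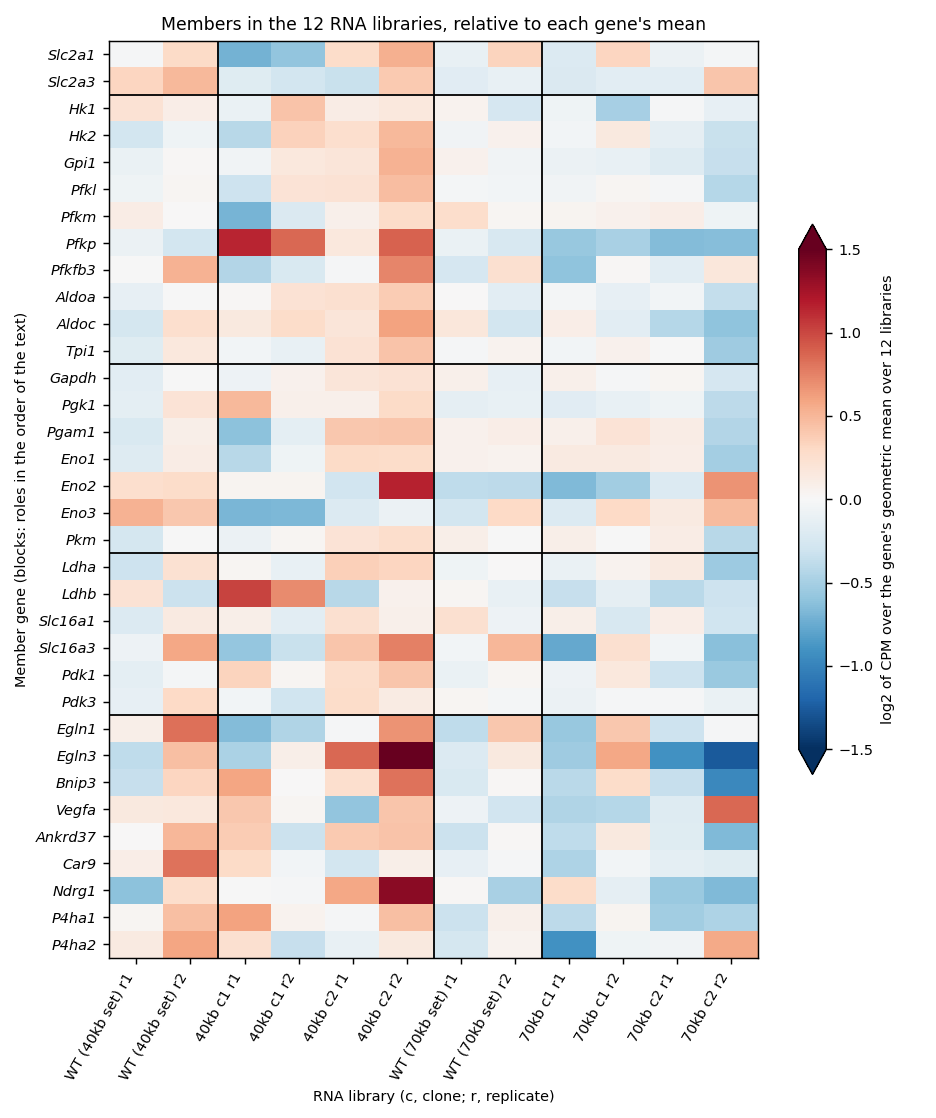
Heat map of the 34 members (rows, in blocks by role) in the 12 libraries (columns, in 4 groups), coloured by log2 of CPM over the gene's geometric mean over the 12 libraries, with the scale ending at 1.5 either way. The column of 40kb clone 2 replicate 2 is above the mean in 33 of 34 members. That of 70kb clone 2 replicate 2 is below it in 28. Pfkp is red in all 4 40kb columns. The same counts over all genes were not made.

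**Figure D4:**
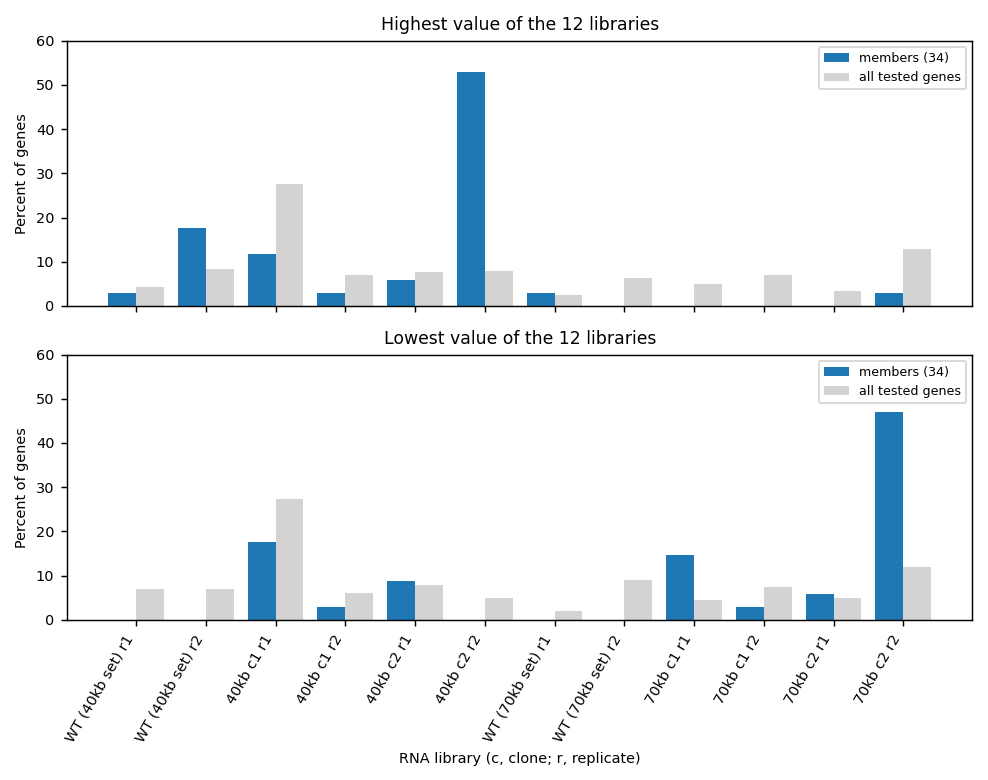
Percent of the 34 members (blue) and of all tested genes (grey) that had their highest (top) or lowest (bottom) value in each of the 12 libraries. Of the members 18 peaked in 40kb clone 2 replicate 2 and 16 were lowest in 70kb clone 2 replicate 2, where 7.87% and 12% of all genes did so.

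Libraries of 1 genotype also differed in the oxygen-response genes. All 9 were higher in replicate 2 than in replicate 1 of the wild type of the 40kb set (median log2 difference 0.65) and of 40kb clone 2 (0.57), and 8 of 9 in 70kb clone 1 (0.51). Over all 34 members 29, 30 and 25 were higher in these pairs, with medians of 0.31, 0.25 and 0.11. How many of all genes were higher in replicate 2 was not counted, so the counts in this paragraph have no background beside them. In the wild type of the 40kb set replicate 1 was B2 and replicate 2 was B6. In the wild type of the 70kb set, 40kb clone 1 and 70kb clone 2 the counts were 18, 17 and 11 of 34. In the wild type of the 70kb set 7 of 9 were higher (0.31), in 70kb clone 2 there were 4 of 9 (-0.03), and in 40kb clone 1 there were 2 of 9 (-0.38). Bnip3 gave log2 differences of 0.67, 0.57 and 0.69 in the first 3 of these pairs and of -0.62 in 70kb clone 2. Egln1 was higher in replicate 2 in all 6 pairs, by 0.20 to 0.97. These pairs are not 6 repeats of the same contrast. Those of the 40kb set compared B6 with B2, B2 with B1, and B6 with B5. Every pair of the 70kb set compared B14 with B13. For comparison, the log2 fold changes of Bnip3 and Egln1 between the 40kb libraries and their wild type were 0.43 and -0.52.

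The difference between both allele effects was tested as well. By edgeR 0 of 34 members were called, as were 0% of all genes, and 2 members had an unadjusted p under 0.05, where 12.8% of all genes did; DESeq2 called 1 member, Pfkp, and 448 genes. For Pfkp the 40kb effect exceeded the 70kb effect by 1.41 on the log2 scale (SE 0.29, adjusted p = 0.169 by edgeR, from 0.00291 to 0.799 over 19 alternatives). For Eno3 the difference was -1.0 (SE 0.34, adjusted p = 0.223). The wild-type libraries of both sets enter this difference and each also serves the comparison of its own set, so these values are not separate evidence.

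Both wild types were also set against each other. No member was called by edgeR (0 of 34, 0% of all genes) or DESeq2 (0), and 0 had an unadjusted p under 0.05, where 2.37% of all genes did. The 2 libraries of 1 set lay beyond both of the other for 9 members, 7 higher in the 40kb set and 2 lower, where 40.2% of all genes separated in this way. Slc2a3 was one of those that were higher, with a log2 difference of 0.55 (SE 0.26, adjusted p = 0.997), and Hk1, Eno2, Eno3, Vegfa, Car9 and P4ha2 were the others. Hk2 and Pkm were lower. All 9 oxygen-response genes lay above 0 in this contrast, with a median of 0.36 beside 0.04 for all members and -0.01 for all genes. The set, the cell name in the labels (E14 in the 40kb set, E14.2 in the 70kb set), the B code of the libraries (a label that the sources used here do not explain) and any day of culture cannot be told apart in this contrast.

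Neighbouring parts of the same metabolism were read from lists in the same fit. Of 9 genes of the HIF pathway itself, among them Hif1a, Arnt and Vhl, 0 were called in any comparison by edgeR, with 3 under an unadjusted p of 0.05 in the 40kb comparison (23.5% of all genes; median log2 fold change -0.05). Of 18 other hypoxia-induced genes 0 were called, with 4 under that p in the 40kb comparison, also near the 23.5% of all genes, and a median of 0.0025. Of 15 isozymes that mostly serve other tissues 10 had enough counts to test and 0 were called. Of 7 pentose phosphate genes 0 were called (median 0.19 in the 40kb and 0.04 in the 70kb comparison).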

How the data were processed

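The authors deposited 1 table of whole-number read counts per gene for the 12 RNA libraries. The library kit kept strand and selected mRNA, per the labels' protocols. The submitters' processing notes name STAR, edgeR and mm9. Counts of all 12 libraries were fitted at once in R 4.3.3 by edgeR 4.0.16 (scaling by TMM, default filter on low counts, a mean per group, quasi-likelihood F test, Benjamini-Hochberg adjustment over 16636 genes, threshold 0.05). The fit left 8 residual degrees of freedom, and the biological coefficient of variation was 23.8%. DESeq2 1.42.0 was the alternative tool. Symbols were matched for 32620 of 37310 rows. Both libraries of a clone counted as replicates, and no 2 libraries were copies of each other (chi-square per degree of freedom at least 29.9 within pairs).

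The differences between replicates 2 and 1 correlated between units of the 70kb set by 0.675, 0.267 and 0.211 over genes. In the 40kb set these values were 0.05, -0.09 and 0.17. Taken by B code (B6 minus B2), the wild type and the 40kb libraries of that set correlated by 0.296. In the 40kb libraries this difference is also clone 2 minus clone 1. On simulated counts for the 40kb comparison, 28% of 100 genes changed 2-fold and 68% of 100 changed 4-fold were recovered, with 4 false calls among 16366 genes. The simulated libraries were drawn independently, without effects of clone or B code, and the changed genes were picked at random. These shares thus need not hold for the real libraries or for the members. Full statistics are given for called members, the X-linked members and the 3 largest rises and 3 largest falls per allele comparison among members that averaged 20 counts or more. The other members shown by library (Aldoa, Gpi1, Ldha, Ldhb, Pdk1 and Bnip3) were chosen after their values were seen. The members and lists were chosen with earlier results of these data known. One result from the citrate cycle list is not reported here.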

Additional observations from a re-analysis of the deposited data

Results flagged for a closer look

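In 6 of 68 sets of 4 allele libraries, 1 library stood further from the other 3 than the 95% critical value of Dixon's test allows, and chance gives about 1 such flag in 20 groups. In 40kb clone 2 replicate 2, Slc2a3 was at 2066 CPM against 1245 to 1383 CPM in the other 3 libraries, and Eno2 at 7.66 CPM against 2.82 to 3.56 CPM. In 70kb clone 2 replicate 2, Slc2a3 was at 2099 CPM against 1346 to 1411 CPM, Vegfa at 53.5 CPM against 21.4 to 25.7 CPM, and Eno1 at 1459 CPM against 2232 to 2291 CPM. In 40kb clone 1 replicate 2, Ankrd37 was at 3.34 CPM against 5.44 to 5.59 CPM.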

How the results depend on the processing

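The count of 2 members called in the 40kb comparison was 0 with the 70kb set's wild type as control, 0 with the counts of each clone summed, 0 in clone 2 alone, 1 against all 4 wild-type libraries, 1 under a B code block, and 4 in clone 1 alone (Pfkp, Eno3, Ldhb and Slc2a1). Leaving out 1 library gave from 0 to 2 members called: 0 without either wild-type library of that set (then no gene at all was called) or without 40kb clone 1 replicate 2, and 1 without 40kb clone 1 replicate 1, 40kb clone 2 replicate 1, 70kb clone 1 replicate 2 or 70kb clone 2 replicate 1. The replicate block left 2, Pfkp and Eno3, and changed no call in the other comparisons. All genes called in the 40kb comparison went from 1070 to 1844 with DESeq2, 1614 with the replicate block and 3 with clone sums. Pfkp kept its direction under 23 alternatives. For the difference between allele effects, DESeq2 called 1 member, and leaving out a library gave from 0 to 1 (Pfkp, without 40kb clone 2 replicate 1). No member was called in the 70kb comparison under 23 alternatives or between wild types under 18.

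Some signs turned, in each case of a difference that had not passed the test. Against the other set's wild type, the log2 fold change was 0.073 for Slc2a3 in the 40kb libraries and, in the 70kb libraries, -0.27 for Eno3, -0.090 for Vegfa and -0.34 for Eno2. Against all 4 wild-type libraries the 70kb values were -0.071 for Eno3 and -0.050 for Eno2. In clone 1 alone they were -0.26 for Vegfa, -0.20 for Eno2 and 0.14 for Egln3, and -0.26 for Egln3 in the 40kb libraries. Leaving out 1 library gave from -0.18 (without 70kb clone 2 replicate 2) to 0.37 for Vegfa, from -0.060 (without the same library) to 0.46 for Eno2, and from -0.11 (without wild-type replicate 1 of that set) to 0.47 for Eno3. The cause of these shifts was not tested. On simulated counts for the 40kb comparison, drawn without effects of clone or B code, 28% of 2-fold and 68% of 4-fold changes were recovered. The contrast of both wild types could not be fitted under a B code block.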

Other observations

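Pyruvate that is not turned into lactate enters the mitochondria through pyruvate dehydrogenase and is burnt in the citrate cycle. Of 22 genes of this complex and cycle, 0 were called in the 40kb comparison by edgeR, 7 had an unadjusted p under 0.05 (23.5% of all genes) and 20 lay above 0 (56.2% of all genes), with a median log2 fold change of 0.23 beside 0.06 for all genes. Their summed level was 2965 and 2974 CPM in the wild type and 3082 to 3477 CPM in 3 of the 40kb libraries. It was highest, at 3794 CPM, in 40kb clone 1 replicate 1, whose part in these values was not tested. Sdhb, a subunit of succinate dehydrogenase, stood at 79.9 and 85.3 CPM in the wild type, at 94.5 to 109 CPM in 3 of the 40kb libraries and at 143 CPM in 40kb clone 1 replicate 1 (log2 fold change 0.44, SE 0.17, adjusted p = 0.143, edgeR). It was chosen after its value was seen. In the 70kb comparison 15 of the 22 lay above 0 with a median of 0.02.

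Among genes of the HIF pathway, Epas1 (HIF-2 alpha) stood at 27.2 CPM (wild type of the 40kb set), 57.3 CPM (40kb libraries), 56.3 CPM (the other wild type) and 48.4 CPM (70kb libraries). Hif3a, whose products can oppose other HIF subunits, stood at 24.2, 11.6, 13 and 12.7 CPM in the same order. In both genes the wild type of the 40kb set was at the end of the order of the 4 group means, and neither passed the test (adjusted p = 0.228 and 0.0995 in the 40kb comparison, edgeR). These genes, too, were chosen after their values were seen.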
